A study of Mus musculus with 21 samples.

Results

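Granulocytes pack their antimicrobial proteins into granules, and 10 genes for such proteins were followed here: Elane, Mpo, Prtn3 and Ctsg of the primary (azurophil) granules, Camp, Ltf and Ngp of the secondary (specific) granules, S100a8 and S100a9, whose products form calprotectin, and Prg2 of the eosinophil granule. They were taken by symbol, and all 10 were present among the 23587 and 22918 genes of the tables analysed. The samples were cells sorted from the mouse main olfactory epithelium, the sheet in the nose that holds the olfactory sensory neurons (OSN). Granulocytes were not sorted as a fraction of their own. In bulk RNA, fewer cells of a type and less RNA per cell cannot be told apart.

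Each mouse carried gg8tTA, a driver active in immature OSN, together with a tetO construct that marks cells with mCherry. In MexHT mice the construct was tetO-Mex3a_HyperTRIBE_mCherry, in which Mex3a, an RNA-binding protein, is joined to the RNA-editing enzyme HyperTRIBE. In HT mice it was tetO-HyperTRIBE_mCherry, the enzyme without Mex3a. The gg8+OMP mice also carried OMPtTA, which is active in mature OSN, and the gg8 mice did not. The gg8+OMP mice gave OSN libraries from 6 MexHT and 3 HT mice and mCherry-negative libraries from 5 and 3 of them. The gg8 mice, all MexHT, gave 2 libraries of each fraction. OSN are the mCherry-positive cells, and the mCherry-negative cells of a replicate came from the same mouse, per the labels. The labels used here give no age and no control without a HyperTRIBE construct. The construct is meant for the cells its drivers reach. The mCherry-negative fraction is the cells sorted without mCherry, which need not exclude every cell that the drivers reach. Library names carry one date for gg8 and another for gg8+OMP mice, so driver and date cannot be told apart.

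Neutrophils make their granules in order as they mature in the bone marrow. Promyelocytes transcribe the primary granule genes, myelocytes and metamyelocytes the secondary granule genes, and each set falls silent at the next stage, while calprotectin RNA stays abundant in mature neutrophils. The balance of these transcripts is therefore known as a marker of maturation. Eosinophils, a sister lineage, store major basic protein, the product of Prg2.

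Recovered read counts ran from 7425287 to 15215673 per library. Mex3a, the check on the labels, stood at 328.5 to 1271 TPM (transcript level per length and library total) in MexHT OSN and 23.96 to 61.5 TPM in HT OSN of gg8+OMP mice, and at 460.3 and 1632 TPM in gg8 OSN. In the mCherry-negative libraries it was 57.8 to 206.8 TPM (MexHT, gg8+OMP), 29.3 to 74.3 TPM (HT) and 211.3 and 101.1 TPM (gg8). The mature neuron gene Omp was at 1311 TPM ± 339 (SD, n = 6) in MexHT OSN and 2361 ± 502 (n = 3) in HT OSN. It was also at 745 ± 571 (n = 5) and 1746 ± 572 (n = 3) in the corresponding mCherry-negative libraries, so these still held neuronal RNA. In gg8 mice Omp was at 109 ± 78.1 TPM (n = 2) in OSN and 2749 ± 1148 (n = 2) in mCherry-negative libraries.

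The stretches just upstream of the genes are shown because the 4 primary granule genes share a short string there, and sequence was no part of how the genes were chosen. RefSeq windows of 250 bases before the start site (GRCm38.p6, the assembly behind mm10) were found for 9 of the 10 genes. They were searched on both strands for AGGAAGT, a core bound by PU.1 (the product of Spi1), and TTGCNNAA, a core bound by C/EBP factors. The motifs were matched separately, and no match of one overlapped a match of the other. AGGAAGT was present in 7.69% of 32851 such windows and in 5 of the 9. Each of the 4 primary granule genes held it once, as did S100a8 on the opposite strand. Printed 5′ to 3′, cut where the GENCODE M21 model of the same gene begins an exon, and with the matched letters in capitals, they read:

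Elane, chr10:79886062-79886246, plus strand: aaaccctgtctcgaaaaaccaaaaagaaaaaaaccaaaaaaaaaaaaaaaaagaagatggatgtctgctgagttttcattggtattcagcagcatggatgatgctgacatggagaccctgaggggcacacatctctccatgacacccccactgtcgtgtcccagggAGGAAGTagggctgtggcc

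Prtn3, chr10:79879417-79879613, plus strand: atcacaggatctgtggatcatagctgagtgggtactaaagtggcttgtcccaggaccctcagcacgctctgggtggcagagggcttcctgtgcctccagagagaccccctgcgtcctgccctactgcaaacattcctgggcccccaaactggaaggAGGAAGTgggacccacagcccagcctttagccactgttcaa

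Mpo, chr11:87793534-87793580, plus strand: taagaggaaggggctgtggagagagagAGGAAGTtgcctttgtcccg

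Ctsg, chr14:56102575-56102824, minus strand: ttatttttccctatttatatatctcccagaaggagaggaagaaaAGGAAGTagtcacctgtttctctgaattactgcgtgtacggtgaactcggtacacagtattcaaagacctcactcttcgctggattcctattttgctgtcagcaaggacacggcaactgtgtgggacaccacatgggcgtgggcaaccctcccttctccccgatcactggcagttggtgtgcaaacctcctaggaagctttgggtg

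S100a8, chr3:90668821-90668977, plus strand: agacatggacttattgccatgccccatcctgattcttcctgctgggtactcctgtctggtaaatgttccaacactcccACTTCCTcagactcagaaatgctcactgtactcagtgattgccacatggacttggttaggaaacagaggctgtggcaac

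TTGCNNAA was present in 9.56% of the same windows and in 3 of the 9, namely Ltf, Ngp and S100a9. Ngp had a second match 11 bases before its RefSeq start, beyond the printed stretch. These are shown for contrast with the primary granule set:

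Ltf, chr9:111019042-111019270, plus strand: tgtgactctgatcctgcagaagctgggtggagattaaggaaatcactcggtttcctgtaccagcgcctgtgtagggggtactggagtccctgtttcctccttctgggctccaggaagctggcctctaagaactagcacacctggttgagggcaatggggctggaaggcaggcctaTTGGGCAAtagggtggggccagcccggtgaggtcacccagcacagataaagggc

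Ngp, chr9:110419558-110419746, plus strand: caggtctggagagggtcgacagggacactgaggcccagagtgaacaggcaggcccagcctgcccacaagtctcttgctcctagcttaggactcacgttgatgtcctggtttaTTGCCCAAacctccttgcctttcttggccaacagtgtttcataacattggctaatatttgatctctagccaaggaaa

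S100a9, chr3:90695722-90695971, minus strand: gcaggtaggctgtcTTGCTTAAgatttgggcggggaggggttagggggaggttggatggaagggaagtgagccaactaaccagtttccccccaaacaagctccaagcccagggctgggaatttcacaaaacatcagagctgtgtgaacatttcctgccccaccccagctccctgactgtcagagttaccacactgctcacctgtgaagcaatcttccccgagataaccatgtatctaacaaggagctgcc

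The primary granule matches lay 84 (Elane), 94 (Prtn3), 206 (Ctsg) and 223 (Mpo) bases before the RefSeq start. The Camp window held neither string. A match is a string of letters, not a measured binding site, and the libraries hold no binding data.

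Granule RNA was abundant in mCherry-negative cells and low in OSN. Elane, Ctsg and Prg2 had 0 to 29 counts per OSN library, while Ltf still had 124 to 672 counts, Ngp 62 to 434 and S100a9 68 to 286 in OSN of gg8+OMP mice. The 10 genes together made up 1.24% to 1.66% of all TPM in MexHT mCherry-negative libraries of gg8+OMP mice and 0.64% to 1.52% in the HT ones. In OSN of the same mice they made up 0.016% to 0.0462%. In gg8 mice the shares were 0.372% and 0.287% in mCherry-negative libraries and 0.00715% and 0.00786% in OSN.

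**Figure D1:**
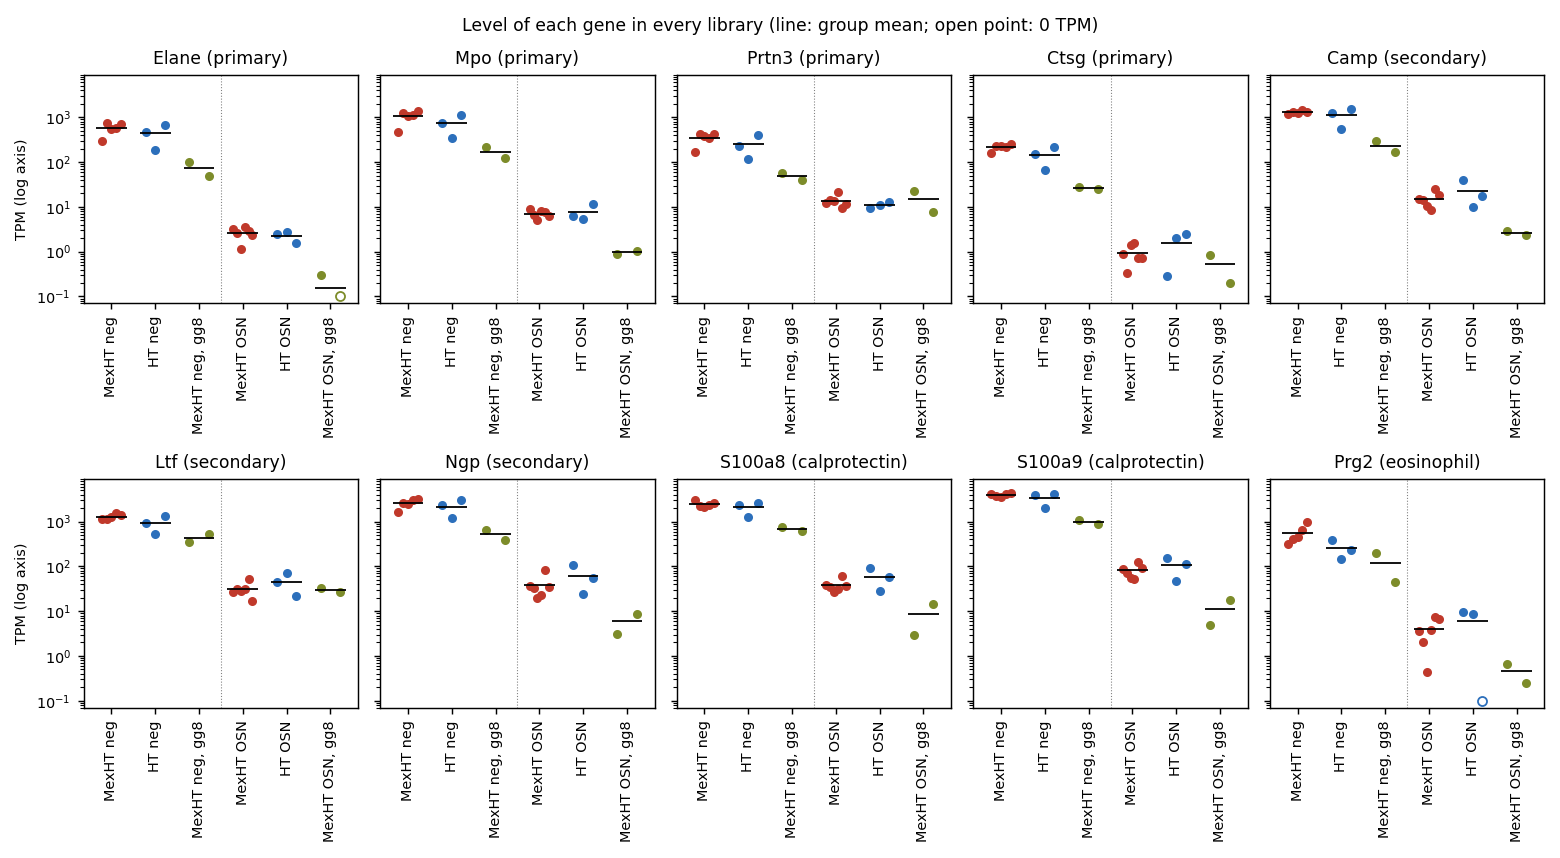
TPM of each of the 10 genes (log axis) in all 21 libraries, by group, with mCherry-negative groups ("neg") left of the dotted line and OSN right of it. Points are libraries, lines are group means and open points are 0 TPM, and in every panel each mCherry-negative library is above all OSN libraries of the same construct and driver.

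Among mCherry-negative libraries of MexHT gg8+OMP mice (n = 5, TPM ± SD), the transcripts, compared per length, ran in the order S100a9 (3930 ± 359), Ngp (2585 ± 600), S100a8 (2465 ± 340), Camp (1300 ± 120), Ltf (1291 ± 179), Mpo (1073 ± 359), Elane (572 ± 172), Prg2 (564 ± 266), Prtn3 (346 ± 105) and Ctsg (216 ± 36.9). Of the 9 neighbouring pairs in this order, S100a9 and Ngp, and S100a8 and Camp, lay further apart than their SDs, and the others overlapped within theirs. S100a9 was among the 6 to 8 most abundant genes of each of these 5 libraries. By mean, Ngp, a secondary granule gene, thus stood between the calprotectin genes, and all 4 primary granule genes stood below the secondary and calprotectin genes. Single libraries differed: Mpo (1264 TPM) was above Ltf (1115 TPM) in replicate 2. In replicate 5 Mpo (1408 TPM) was above Ltf (1399 TPM) and Camp (1335 TPM).

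Elane, neutrophil elastase (chr10:79886312-79888216, plus strand, RefSeq on GRCm38), was at 301.9, 742.9, 557.3, 563.4 and 696.8 TPM in the MexHT mCherry-negative libraries of gg8+OMP mice. It was at 458.3, 183.7 and 683.1 TPM in the HT ones. In OSN it ran from 1.18 to 3.48 TPM (median 2.73, n = 6) in MexHT and was at 2.45, 2.78 and 1.56 TPM in HT mice. The fractions did not overlap, and the OSN values rested on 3 to 11 counts. Against mCherry-negative cells, Elane was lower in MexHT OSN by a log2 difference of -7.27 (SE 0.24, limma adjusted p 7.9e-10) and in HT OSN by -6.91 (SE 0.46, adjusted p 0.00217). Differences are on the log2(TPM + 1) scale, which understates those of genes near 0. In gg8 mice Elane was at 101.2 and 49.5 TPM in mCherry-negative libraries and at 0.307 TPM (1 count) and 0 TPM in OSN, where a count of 0 allows up to 3 counts (counting error only).

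Mpo, myeloperoxidase, which makes hypochlorous acid (chr11:87793784-87804412, plus strand), had the most RNA of the primary set. Its mCherry-negative levels in gg8+OMP mice were 471.5, 1264, 1085, 1136 and 1408 TPM in MexHT and 760.4, 346.7 and 1131 TPM in HT libraries. OSN had 5.11 to 8.9 TPM (median 7.13) in MexHT and 6.3, 5.48 and 11.8 TPM in HT. The log2 differences were -6.98 (SE 0.25, limma adjusted p 9.09e-10) and -6.31 (SE 0.46, adjusted p 0.00217). GENCODE M21 places an antisense gene, Gm11505, across Mpo, and Gm11505 is not listed in the table. Whether the counting used strand is not given in the sources used here, so reads of the pair cannot be told apart.

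Ctsg, cathepsin G, a serine protease (chr14:56099885-56102574, minus strand), was the least abundant, at 155.5 to 253.6 TPM in MexHT and 67.1 to 215.8 TPM in HT mCherry-negative libraries. OSN had 0.336 to 1.6 TPM and 0.281 to 2.5 TPM, which were 1 to 7 counts. Its log2 differences were -6.81 (SE 0.19, limma adjusted p 5.23e-10) and -5.79 (SE 0.53, adjusted p 0.00222).

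Prtn3, proteinase 3 (chr10:79879667-79883174, plus strand), ends 3137 bases before Elane and behaved unlike it in OSN. mCherry-negative libraries of gg8+OMP mice had 168.6, 415.9, 380.9, 338.9 and 427.1 TPM (MexHT) and 227, 118.8 and 401.7 TPM (HT). OSN had 9.25 to 21.4 TPM (median 12.9) in MexHT and 9.28, 10.9 and 12.9 TPM in HT, all above the Elane levels of the same libraries. The log2 differences of -4.53 (SE 0.25, limma adjusted p 1.82e-08) and -4.22 (SE 0.41, adjusted p 0.00271) were the smallest of the 10 genes. In gg8 mice Prtn3 was at 57.4 and 40.3 TPM in mCherry-negative libraries and still at 22.4 and 7.61 TPM in OSN, with 77 and 36 counts.

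The longer GENCODE model of Prtn3 shares 159 bases with Plppr3 on the opposite strand, while the RefSeq models of the pair do not touch. Plppr3 is in the table under its older symbol Lppr3, at 107.6 TPM ± 11.5 (SD, n = 6) in MexHT OSN and 82.9 ± 26.3 (n = 5) in MexHT mCherry-negative libraries. The part of that overlap in the Prtn3 values was not tested. "Prg2" is also an alias of Plppr3 in RefSeq. The table has a row for each, and the Prg2 row followed the eosinophil genes Epx and Prg3 in its fall in OSN, not Lppr3.

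The secondary granule genes had higher mean levels in mCherry-negative cells than the primary granule genes. Their fall in OSN was not uniformly smaller: in gg8+OMP mice Ltf, Ngp and Camp fell less than Elane, Mpo and Ctsg and more than Prtn3, and in gg8 mice the median log2 difference was -5.96 for the secondary and -5.09 for the primary set. Ltf, lactoferrin, which binds iron (chr9:111019292-111042766, plus strand), had 1126, 1115, 1284, 1532 and 1399 TPM in MexHT and 941.9, 533.6 and 1332 TPM in HT mCherry-negative libraries of gg8+OMP mice. OSN had 16.6 to 53.1 TPM (median 29.5) in MexHT and 44.9, 69.7 and 22.1 TPM in HT. The log2 differences were -5.40 (SE 0.22, limma adjusted p 2.14e-09) and -4.38 (SE 0.47, adjusted p 0.00339). In gg8 mice Ltf was at 350.1 and 530.1 TPM in mCherry-negative libraries and at 32.6 and 26.7 TPM in OSN, inside the range of gg8+OMP OSN (the tables were scaled separately).

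Ngp, a cystatin-family granule protein (chr9:110419808-110423012, plus strand), and Camp, the cathelicidin precursor (chr9:109847377-109849456, minus strand), fell further. Ngp was at 1664 to 3149 TPM (MexHT) and 1180 to 2987 TPM (HT) in mCherry-negative libraries and 19.3 to 85 TPM and 23.8 to 105.1 TPM in OSN. Camp was at 1154 to 1475 and 545.3 to 1507 TPM in mCherry-negative libraries and 8.68 to 24.7 and 9.97 to 40.4 TPM in OSN. In MexHT mice the log2 differences were -6.16 for Ngp (SE 0.31, limma adjusted p 8.79e-09) and -6.39 for Camp (SE 0.21, adjusted p 7.9e-10). In HT mice they were -5.26 for Ngp (SE 0.56, limma adjusted p 0.00339) and -5.64 for Camp (SE 0.56, adjusted p 0.00281).

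S100a8 (chr3:90669071-90670034, plus strand) and S100a9 (chr3:90692630-90695721, minus strand) encode the calcium-binding subunits of calprotectin, which are cytosolic and not granule cargo. S100a8 was at 2962, 2283, 2069, 2404 and 2608 TPM in MexHT and 2331, 1291 and 2656 TPM in HT mCherry-negative libraries of gg8+OMP mice. Its OSN levels were 26.7 to 60.6 TPM (median 35.4) in MexHT and 90.4, 28.3 and 59.3 TPM in HT. The fractions did not overlap in either construct. S100a8 was lower in OSN by log2 differences of -6.02 in MexHT (SE 0.18, limma adjusted p 5.23e-10) and -5.20 in HT mice (SE 0.45, adjusted p 0.00222).

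S100a9 kept a narrow range of ratios to S100a8, at 1.37 to 1.69 in MexHT and 1.54 to 1.71 in HT mCherry-negative libraries. Its own levels there were 4062, 3681, 3464, 4061 and 4380 TPM, and 3981, 1990 and 4079 TPM. OSN had 51.9 to 128.2 TPM (median 80.1) in MexHT and 153.5, 46.1 and 114.7 TPM in HT. The log2 differences were -5.65 (SE 0.21, limma adjusted p 1.01e-09) and -5.08 (SE 0.48, adjusted p 0.00251).

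Prg2 (chr2:84980461-84983632, plus strand) differed widely between mice. Its levels were 317.7, 415.4, 454.2, 643.7 and 989.9 TPM in MexHT and 388.9, 144.1 and 234.6 TPM in HT mCherry-negative libraries of gg8+OMP mice. In OSN it ran from 0.431 to 7.52 TPM (median 3.71) in MexHT and was at 9.73, 8.49 and 0 TPM in HT. The log2 differences were -6.93 (SE 0.43, limma adjusted p 4.88e-08) and -5.67 (SE 0.92, adjusted p 0.0121). Without HT mCherry-negative replicate 1 the HT difference of -5.31 no longer passed (limma adjusted p 0.0659).

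Over both constructs, 10 of 10 genes were lower in gg8+OMP OSN. In MexHT mice limma called 63.4% of 16522 genes, 27.6% as lower. The granule genes had a median log2 difference of -6.28, against 0.16 over all genes tested (0.03 after median-of-ratios scaling). In HT mice it called 11.3% of 17027 genes, 9.11% as lower, and the medians were -5.45 for the granule genes and 0.10 for all genes. With the mouse as a block the HT fit called 4967 genes in place of 1923, and the same count of 10 of 10. Groups that did not overlap, with OSN lower, made up 19.6% (MexHT) and 18.0% (HT) of genes, and included all 10 granule genes.

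**Figure D2:**
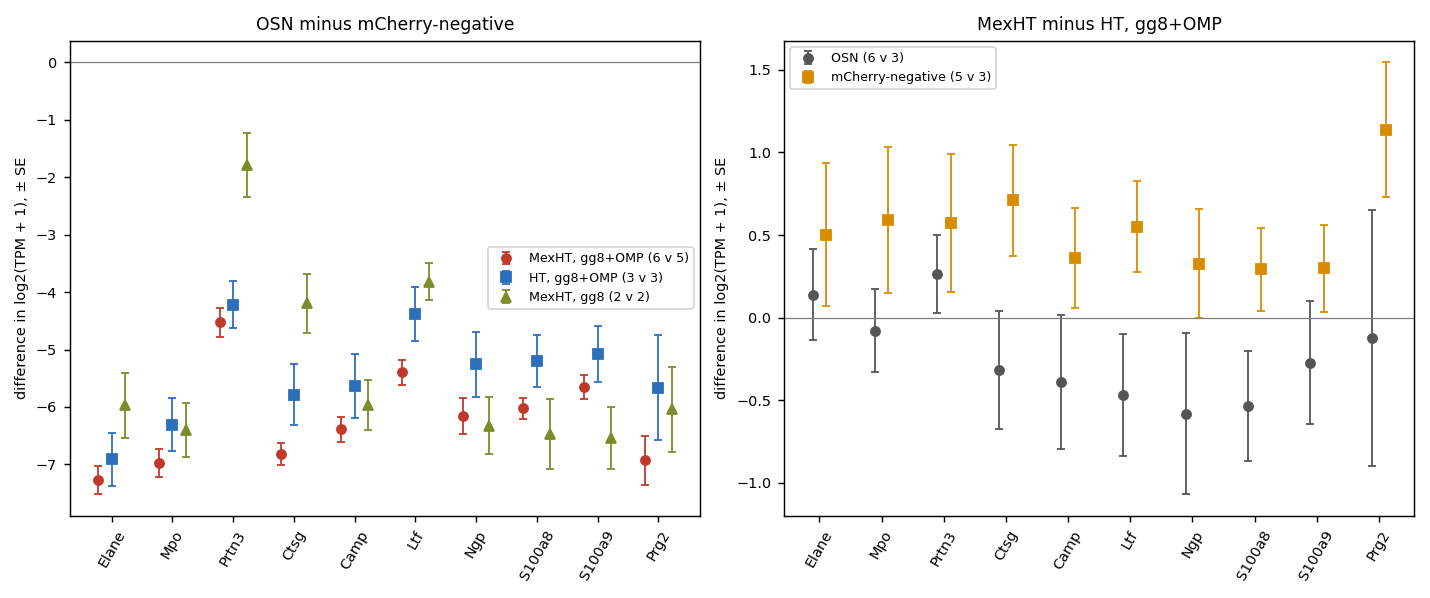
Left, difference in log2(TPM + 1) between OSN and mCherry-negative libraries for each gene in MexHT gg8+OMP, HT gg8+OMP and MexHT gg8 mice. Right, difference between MexHT and HT libraries within OSN and within mCherry-negative cells, with bars for the standard error throughout: all fraction differences are below 0 and Prtn3 in gg8 mice is nearest to it at -1.79.

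In gg8 mice, 9 of 10 were called lower, where limma called 8.32% of 16490 genes, 7.2% as lower. All 10 were among the 30.2% of genes whose OSN libraries both lay below both mCherry-negative libraries. The median log2 difference was -6.01 against 0.09 over all genes. Elane, Ctsg and Prg2 were at or under 3 counts in both OSN libraries, and with those set to 3 counts the median was -5.82. The differences ran from -3.82 for Ltf (SE 0.32, limma adjusted p 0.00742) to -6.54 for S100a9 (SE 0.54, adjusted p 0.00732). Prtn3 missed the threshold at -1.79 (SE 0.56, adjusted p 0.0932). The calls changed with the libraries used. Without mCherry-negative replicate 1, mCherry-negative replicate 2 or OSN replicate 2, limma called no gene of the table, and without OSN replicate 1 it called 3703 genes and 10 of 10 granule genes.

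Set against the mCherry-negative cells of its own mouse, OSN RNA kept 0.211% to 1.09% of the Elane level in 5 MexHT mice, and 0.534%, 1.51% and 0.228% in the 3 HT mice. Mpo kept a median of 0.534% in MexHT and 1.04% in HT mice, and S100a8 1.30% and 2.23%. Prtn3 kept 3.52% and 4.09%, and Ltf 2.32% and 4.77%. In gg8 mice Prtn3 kept 39% and 18.9%, and Ltf 9.32% and 5.04%. Prtn3 had the highest retained share of the 10 genes in 7 of the 10 mice, and Ltf in the other 3.

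**Figure D3:**
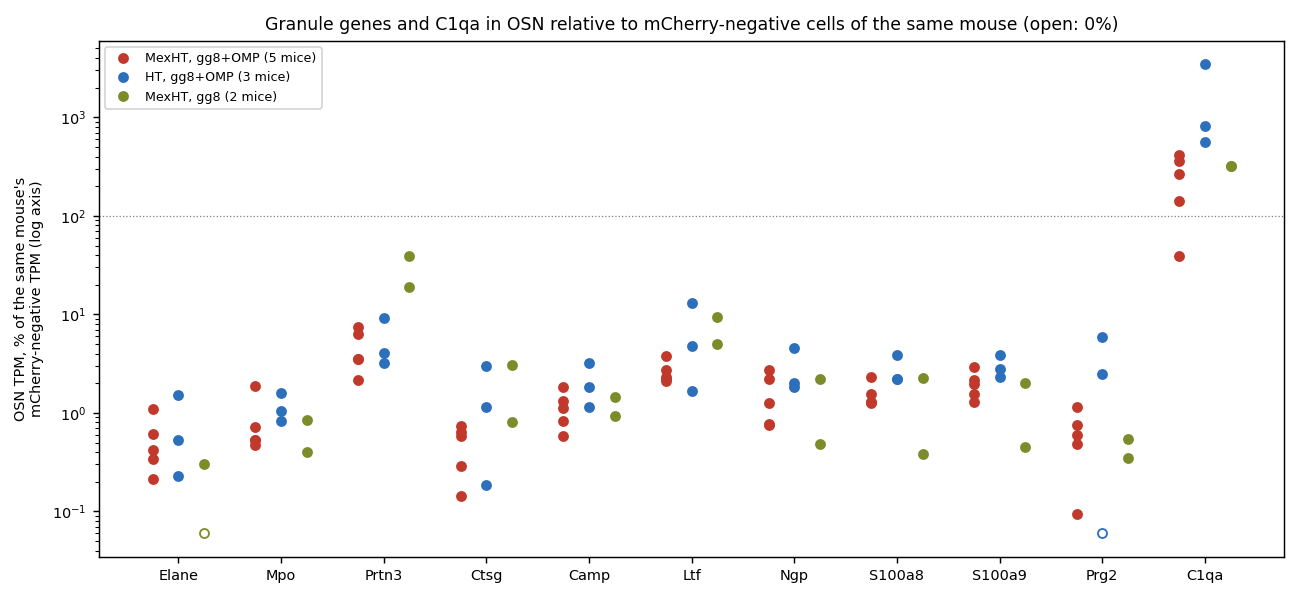
OSN level of each granule gene, and of the macrophage gene C1qa, as a percentage of the mCherry-negative level of the same mouse (log axis, 1 point per mouse, open points 0%). The granule genes lie at or under 13.1% except Prtn3 in gg8 mice (39% and 18.9%), while C1qa exceeds the mCherry-negative level in 9 of 10 mice.

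RNA of the 10 granule genes in OSN did not pass the test between constructs. Against HT OSN, MexHT OSN differed by log2 0.14 for Elane (SE 0.28, limma adjusted p 0.719), -0.47 for Ltf (SE 0.37, adjusted p 0.338) and -0.53 for S100a8 (SE 0.33, adjusted p 0.227). Across the 10 genes 2 were higher and 8 lower, with a median of -0.29 against 0.03 for all genes. limma called 0 of the 10 and voom 0, and 0 had an unadjusted p under 0.05, where limma called 36.8% of 16067 genes. Without HT OSN replicate 2 there was 1 call, S100a8 at -0.98 (adjusted p 0.032). The SEs ran from 0.24 for Prtn3 to 0.77 for Prg2.

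Macrophage genes moved in the same contrast where the 10 granule genes did not pass. Of 11 monocyte and macrophage genes, 9 were called lower in MexHT than in HT OSN, against 16.8% of all genes. Of the other granulocyte lists, 4 of 9 promyelocyte and primary granule genes and 3 of 13 mature neutrophil genes were called lower. So were 5 of 13 secondary and tertiary granule genes, with 1 called higher, and 4 of 8 granulocyte transcription factors. Among the most abundant genes of the granule and mature neutrophil lists, Srgn, Lyz2 and Il1b were called lower. Hp (in both granule lists), Fcnb, Lcn2, Retnlg and G0s2 did not pass (limma adjusted p 0.153 to 0.770). Which cells the called genes came from was not tested. C1qa, a complement component made by macrophages, was at 432 TPM ± 364 (SD, n = 3) with HT alone and 51.5 ± 17 (n = 6) with MexHT, and the summed level of the list was 899 to 4031 TPM against 187.6 to 374.4 TPM. Spi1 was at 52.1 TPM ± 35.9 (n = 3) and 9.53 ± 2.99 (n = 6), a log2 difference of -2.18 (SE 0.37, limma adjusted p 0.00183). Lyz2, lysozyme, which granulocytes and macrophages both make, differed by -2.21 (SE 0.36, limma adjusted p 0.00154). The part of these cells in the granule RNA of OSN was not tested.

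In mCherry-negative cells all 10 genes were higher in MexHT than in HT libraries, and 0 passed the test. limma called 0.0% of 16860 genes in this contrast, while 3465 had an unadjusted p under 0.05. The median of the 10 was 0.53 against -0.01 for all genes. Prg2 differed most, by 1.14 (SE 0.41, limma adjusted p 0.218), with 4 of 5 MexHT libraries above all HT ones, and was the 1 gene of the 10 with an unadjusted p under 0.05. By voom 0 were called.

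For 5 of the 10 genes the direction rested on 1 library. HT mCherry-negative replicate 2 was the lowest of its group for 10 of 10 granule genes, with S100a9 at 1990 TPM beside 3981 and 4079 TPM. Without it the differences were -0.032 for Elane, -0.083 for Camp, -0.058 for Ngp, -0.024 for S100a8 and -0.041 for S100a9. The other 5 stayed higher in MexHT libraries, at 0.12 for Mpo, 0.12 for Prtn3, 0.24 for Ctsg, 0.19 for Ltf and 0.78 for Prg2, and none passed (limma adjusted p 0.567 to 0.928; 0 of the 10 were called). In that library Omp was at 2159 TPM and the bone gene Col1a1 at 4794 TPM, the highest and lowest values of its group. Their part in the low granule values was not tested.

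The fraction difference was larger in MexHT than in HT mice for all 10 genes, by a median log2 of -0.79 against 0.10 for all genes. None passed the interaction test in limma, which called 12.4% of 16785 genes, 5.37% as lower, and which sets both constructs and both fractions against each other in 1 fit. Of the 10 genes 0, and of all genes 4689, had an unadjusted p under 0.05, and voom called 0 of the 10. For S100a8 the interaction was -0.83 (limma adjusted p 0.235). With the mouse as a block it was -0.82 and passed narrowly (adjusted p 0.0496), as it did at -1.27 without HT OSN replicate 2 (adjusted p 0.0474). For Elane and Prtn3 the interaction turned to 0.17 and 0.14 without HT mCherry-negative replicate 2. Of the lists beside the 10 genes, 3 of 10 other primary granule genes, 5 of 14 other secondary and tertiary granule genes and 5 of 16 mature neutrophil genes were called lower in this test. So were 4 of 10 granulocyte transcription factors and 8 of 11 monocyte and macrophage genes. Srgn, Lyz2 and Il1b were again among those called, while Hp, Fcnb, Lcn2, Retnlg and G0s2 did not pass (limma adjusted p 0.159 to 0.485).

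Stages of maturation were compared within each library as the mean log2(TPM + 1) of the primary genes minus that of the secondary or calprotectin genes. RNA of the later stages was the higher in all 21 libraries for primary against secondary genes. In mCherry-negative libraries the difference was -1.86 ± 0.35 (SD, n = 5) in MexHT gg8+OMP mice, -2.04 ± 0.19 (n = 3) in HT and -2.53 ± 0.19 (n = 2) in gg8 mice. Against calprotectin it was -2.80 ± 0.58, -3.10 ± 0.37 and -3.68 ± 0.23 in the same order. The group means of the gg8+OMP mice lay within each other's spread.

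RNA of the primary granule genes Elane and Mpo was nevertheless measurable beside that of S100a8. Elane stood at 10.2%, 32.5%, 26.9%, 23.4% and 26.7% of the S100a8 level in MexHT, and 19.7%, 14.2% and 25.7% in HT mCherry-negative libraries of gg8+OMP mice. Mpo stood at 15.9%, 55.4%, 52.5%, 47.3% and 54% of S100a8 in the MexHT libraries. Transcripts of the promyelocyte stage were thus present in every mCherry-negative library, beside those of later stages. Fcnb, a ficolin of immature neutrophils, was there at 146.5 TPM ± 35 (SD, n = 5), and Retnlg, a gene of mature neutrophils, at 609.3 ± 173.2 in MexHT mice.

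**Figure D4:**
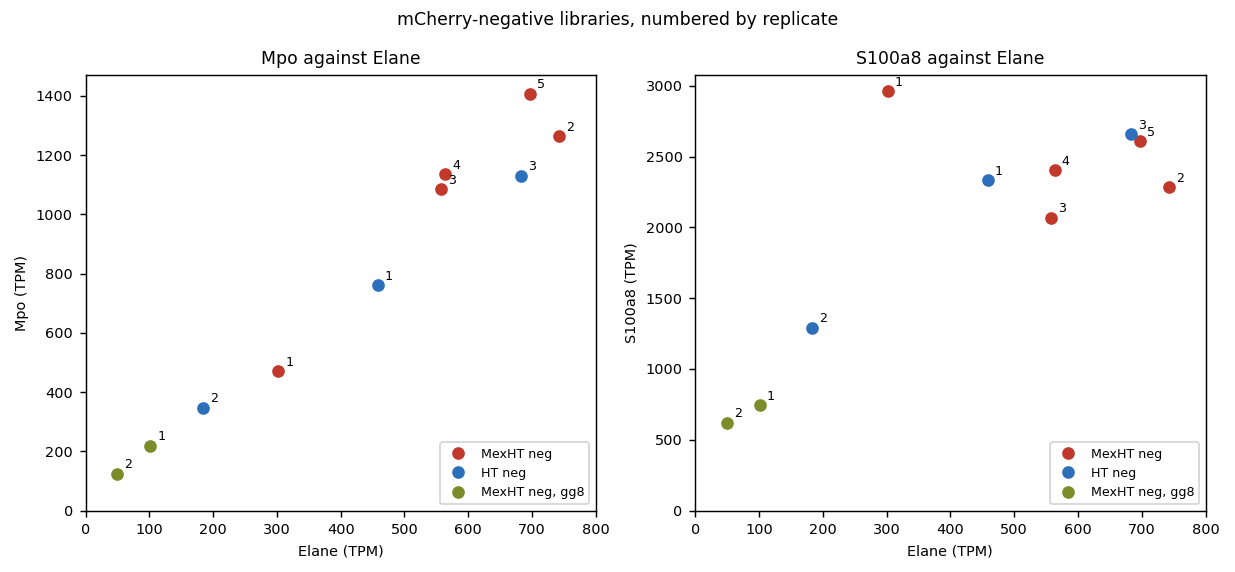
Mpo (left) and S100a8 (right) against Elane, in TPM, in the 10 mCherry-negative libraries, numbered by replicate and marked by group. Mpo follows Elane across libraries, while MexHT gg8+OMP replicate 1 has the highest S100a8 (2962 TPM) with an Elane of 301.9 TPM, the lowest of its group.

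Of the gg8+OMP mCherry-negative libraries, MexHT replicate 1 had the lowest level of primary genes relative to both secondary and calprotectin genes. Its primary genes stood -3.80 below calprotectin on the log2 scale, against -2.75 to -2.40 in the other 4 libraries of its group. It was lowest of the 5 for Elane, Mpo, Prtn3, Ctsg, Camp, Ngp and Prg2, and highest for S100a8. Retnlg, the gene of mature neutrophils, stood at 14.7% of S100a8 there, also the lowest of the 5. A later stage of maturation is thus not shown for this library. In the same library the basal cell gene Krt5 was at 432.4 TPM, against 63.3 to 146.4 TPM in the other 4. The part of that in the balance was not tested. Epithelial cells are known to make S100a8 and S100a9 too.

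On the log2(TPM + 1) scale, which understates differences of genes near 0, the balance of the classes in OSN did not shift one way. The primary genes stood lower against the secondary genes than in the mCherry-negative cells of the same mouse in 6 mice and higher in 4, and against calprotectin lower in 5 and higher in 5. In gg8 OSN the mean for primary against secondary genes was -1.76, but -2.76 with a pseudocount of 0.1 and -2.57 without Prtn3. In gg8 mCherry-negative libraries it was -2.53. Mice were not counted again at another pseudocount. Elane, at 0 to 11 counts per OSN library, was lower as a percentage of S100a8 in OSN in 10 of 10 mice, and so was Elane as a percentage of Mpo. The former was 4.41% to 11.4% in MexHT OSN of gg8+OMP mice. Mpo as a percentage of S100a8 was lower in 8 of 10. Retnlg as a percentage of S100a8 was also lower in 10 of 10. Prtn3 went the other way, at 319% to 1138% of the Elane level in gg8+OMP OSN against 49.5% to 68.3% in mCherry-negative libraries, and was higher in 9 of the 9 mice where Elane was above 0. At a few counts of Elane per OSN library these ratios are imprecise.

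Across the 8 mCherry-negative gg8+OMP libraries, members of a granule class varied together. These correlations are of log2(TPM + 1) over libraries that share their genes' scaling and include the low HT replicate 2. Pearson's r was 0.925 to 0.988 for the 6 pairs of primary genes. It was 0.837 to 0.981 without the 2 libraries farthest from the median, picked for each pair by its first gene. It was 0.957 for S100a8 with S100a9 and 0.902 without those libraries. Secondary pairs had 0.892 to 0.936, and 0.672 to 0.874 without them. Between classes the change without those libraries varied. Primary with secondary genes had 0.818 to 0.959, which became 0.303 to 0.860. Calprotectin with secondary genes had 0.638 to 0.947, which became -0.253 to 0.727. Calprotectin with primary genes had 0.511 to 0.859, which became -0.597 to 0.408. Prg2 with primary genes had 0.670 to 0.768, which became 0.064 to 0.551.

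Over the same 8 libraries 13466 genes averaged at least 5 TPM, and the granule genes and genes with predicted names were set aside from these. Of the rest, those most like Elane were Adgrg3 (r 0.995), Hmha1 (0.979), Mgam (0.977), Cst7 (0.974) and Igsf6 (0.973). Adgrg3, an adhesion G protein-coupled receptor, kept r 0.984 over the 6 libraries left without the 2 farthest. Those most like S100a8 were Tmem38b (0.980), Fam129a (0.979), Ifitm1 (0.971), Samd9l (0.968) and Ppie (0.967), of which Ppie kept 0.875 and Ifitm1 0.722. As the highest of many correlations over few libraries, these r values are raised by selection, by an amount not tested. Ppie was at 23.3 to 59.8 TPM in gg8+OMP OSN, overlapping its mCherry-negative levels (highest 36.9 TPM). Hmha1, at 4.01 to 81.6 TPM in OSN, overlapped its own too (lowest 26.98 TPM). Tmem38b, Fam129a, Ifitm1 and Igsf6 also overlapped, while Adgrg3, Mgam, Cst7 and Samd9l did not.

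Between fractions the other granule and neutrophil genes mostly followed the 10. In MexHT gg8+OMP mice, 9 of 10 other promyelocyte and primary granule genes, 14 of 14 other secondary and tertiary granule genes and 16 of 16 mature neutrophil genes were called lower in OSN. In HT mice the counts were 5 of 10, 10 of 14 and 13 of 16, and in gg8 mice 5 of 9, 11 of 14 and 11 of 16. Of all genes tested, 27.6% (MexHT), 9.11% (HT) and 7.2% (gg8) were called lower. These lists were drawn up with results of these data known, and Hp was counted in both the primary and the secondary list. Their median log2 differences in MexHT mice, -4.07, -4.73 and -4.53, were smaller in size than the -6.28 of the 10 genes.

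Lcn2, the siderophore-binding protein of secondary granules, was at 998.9 TPM ± 192.7 (SD, n = 5) in MexHT mCherry-negative libraries and 12.7 ± 7.38 (n = 6) in OSN. Fcnb fell to 0.906 ± 0.595 and Retnlg to 5.31 ± 2.33 TPM in OSN. Their log2 differences were -6.30 for Lcn2 (SE 0.28, limma adjusted p 3.7e-09), -6.31 for Fcnb (SE 0.27, adjusted p 2.59e-09) and -6.63 for Retnlg (SE 0.25, adjusted p 1.25e-09). Lyz2 fell less, from 1634 ± 209 to 151 ± 38.1 TPM in MexHT mice (-3.45, limma adjusted p 5.77e-09). In HT mice Lyz2 was at 1256 ± 597 (n = 3) and 816 ± 612 TPM (n = 3) and did not pass (-0.73, adjusted p 0.401). The difference between constructs in this fraction contrast passed for Lyz2 (interaction -2.72, limma adjusted p 0.00393).

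Among the transcription factors of granulocytes, 9 of 10 were called lower in MexHT OSN and 5 of 10 in HT OSN. The shares over all genes were 27.6% and 9.11%. Spi1 was at 153.6 TPM ± 46.4 (n = 5) in mCherry-negative MexHT libraries, a log2 difference of -3.87 (SE 0.23, limma adjusted p 4.1e-08). Cebpb, a C/EBP factor, was at 536.9 ± 95.5 TPM and 112 ± 28.1 TPM in OSN (-2.27, limma adjusted p 1.83e-07). Cebpa, which starts the granulocyte programme, was at 82.9 ± 13.8 and 70.3 ± 13.2 TPM and did not pass (-0.24, limma adjusted p 0.181). In HT mice Cebpa was higher in all 3 OSN libraries than in any mCherry-negative one, without passing (0.67, limma adjusted p 0.207).

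Eosinophil and basophil genes fell with Prg2. In MexHT mice 11 of 12 were called lower in OSN, and 10 of 13 in HT mice. Over all genes, 27.6% and 9.11% were called lower. Epx, eosinophil peroxidase, was at 109 TPM ± 51.2 (n = 5) in MexHT mCherry-negative libraries and 0.746 ± 0.627 (n = 6) in OSN (-5.90, limma adjusted p 3.34e-08). Mcpt8, a basophil protease gene, was at 52.8 ± 15.9 and 0.358 ± 0.33 TPM (-5.29, limma adjusted p 3.89e-09). In mCherry-negative cells Epx, like Prg2, was higher in MexHT than HT libraries without passing (1.30, limma adjusted p 0.218), and its interaction of -2.05 passed (adjusted p 0.031).

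The lists of other cell types show what else was in the mCherry-negative fraction beside the granule RNA. Col1a1 was at 10056 TPM ± 3145 (n = 5) in MexHT mCherry-negative libraries. There 10 of 10 bone matrix genes were called lower in OSN, as were 5 of 5 basal cell genes, against 27.6% of all genes. Col1a1 in OSN stood at a median of 1.06% of the same mouse's mCherry-negative level in MexHT mice, close to the 1.30% of S100a8. C1qa stood at 265% in MexHT and 823% in HT mice. The monocyte and macrophage list did not move one way: of its 11 genes, 6 were called lower and 2 higher in MexHT OSN, 3 lower and 7 higher in HT OSN, and 3 lower and 0 higher in gg8 OSN. Of all genes, 63.4% (MexHT), 11.3% (HT) and 8.32% (gg8) were called in either direction. Those called lower were 27.6%, 9.11% and 7.2%.

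Genes beside the granule genes on the chromosome did not share one direction. Cfd, 2636 bases from Elane, was at 0.189 TPM in MexHT mCherry-negative libraries and 0.25 TPM in OSN. Lpo, 2015 bases from Mpo, was higher in OSN, at 1.59 against 0.547 TPM (log2 0.74, limma adjusted p 0.00772). Klhl18, 2913 bases from Ngp, was at 32.6 TPM in OSN and 19.1 TPM in mCherry-negative libraries, while Ngp itself fell. Prg3, 4563 bases from Prg2 and an eosinophil granule gene too, fell with it, from 34.0 to 0.659 TPM, and Mcpt8 lies 14385 bases from Ctsg.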

How the data were processed

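The deposited values are TPM, in a table of 17 gg8+OMP libraries and another of 4 gg8 libraries, scaled separately by the authors. Per the labels' protocols, cells were dissociated with papain, sorted by mCherry, and their RNA, extracted with TRIzol, was made into libraries with a Takara SMARTer Pico kit for stranded total RNA. The submitters' processing notes name FastQC, cutadapt, STAR, bedtools and mm10. The counting program, annotation and use of strand are not given in the sources used here. Rows with dates in place of gene names, 27 in either file, were left out (at most 0.221% of TPM).

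The members and the gene lists were chosen with earlier results of these data known. The text names the 10 genes, the 5 genes most correlated with Elane and with S100a8, and chromosomal neighbours. From the other lists it names some or all of the 3 most abundant genes, and from several lists none. Tests were two-sided, with limma 3.58.1 (lmFit and eBayes with trend, R 4.3.3) on log2(TPM + 1), within a table, for genes averaging 1 TPM or more over the samples compared. p-values were adjusted by Benjamini-Hochberg over all genes tested, with a threshold of 0.05. The other log2 values and ratios were computed from the deposited TPM with Python 3.11.15.

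Whole read counts were recovered from the deposited TPM steps for 23613 of 23614 genes (within 0.01 counts) and 22775 of 22808 genes (within 0.05 counts). They give the depths and the voom alternative, with TMM factors. Count recovery and the limma fits were tested on simulated data. Replicates of a group differed beyond counting noise (chi-square per degree of freedom 3.33 to 114 over 33 pairs), so none was counted as a duplicate. Nothing says that replicates of a group were separate litters or days, and p-values measure the spread between these samples.

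The fits have no block. By the labels, OSN and mCherry-negative cells of a replicate came from 1 mouse. Their deviations from the group means correlated by -0.136 to 0.497 in MexHT, 0.234 to 0.508 in HT and -0.00907 in gg8 mice. Between constructs, shared numbers correlated by 0.276 to 0.497 in mCherry-negative cells and -0.301 to 0.179 in OSN. Alternatives were a pseudocount of 0.1, no filter, a mean of at least 5 TPM, median-of-ratios scaling, voom, the replicate block, all 4 gg8+OMP groups in 1 fit, and each library left out.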

Additional observations from a re-analysis of the deposited data

Results flagged for a closer look

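Of 46 sets of 5 or 6 values checked, 11 had a highest or lowest value set apart from the rest of its group by Dixon's criterion, which chance meets in about 1 of 20 groups. Many sets were ratios or differences of the same genes in the same libraries. The 11 are thus not independent and cannot be set against that share. MexHT gg8+OMP OSN replicate 5 held 4 of them: Ngp at 85 TPM, S100a8 at 60.6 TPM, Ngp at 140% of S100a8, and Mex3a at 1271 TPM. The same library was the highest of its group for 6 of the 10 granule genes.

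MexHT gg8+OMP mCherry-negative replicate 1 held 5. Its primary genes were -3.80 and its secondary genes -1.42 from calprotectin on the log2 scale, both the lowest of the 5 libraries. Ngp stood at 56.2% and Mpo at 15.9% of S100a8, and S100a9 at 1.37 per S100a8. MexHT gg8+OMP OSN replicate 3 held the other 2, with Prtn3 at 1138% of Elane and Elane at 23.1% of Mpo. Both rest on the 3 counts of Elane in that library.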

How the results depend on the processing

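The granule genes called lower in OSN were 10 of 10 in MexHT mice under every alternative run. In HT mice they were 10 except 9 without mCherry-negative replicate 1. In gg8 mice they were 9 under all settings with 4 libraries and 0 to 10 with 1 left out, where the lone sample is assumed to vary like the others. Between constructs, 0 were called in mCherry-negative cells throughout. In OSN, 0 to 1 were called with 1 library left out and 0 elsewhere. The interaction gave 0 to 1 with 1 library left out and 1 with the replicate block by mouse. The block changed no other call of a granule gene. The MexHT against HT difference in OSN changed sign for Elane to -0.0016 with the replicate block by shared number, and for Prg2 to 0.59 with a pseudocount of 0.1 and 0.24 with voom. With 1 library left out it ran from -0.028 to 0.28 for Elane, -0.27 to 0.22 for Mpo, -0.83 to 0.13 for Camp, -0.77 to 0.082 for S100a9 and -1.24 to 0.48 for Prg2. In mCherry-negative cells it ran -0.032 to 0.91 for Elane, -0.083 to 0.65 for Camp, -0.058 to 0.61 for Ngp, -0.024 to 0.50 for S100a8 and -0.041 to 0.48 for S100a9, and the interaction -0.77 to 0.17 for Elane and -0.74 to 0.14 for Prtn3. The cause was not tested. Over all genes, limma called 5907 between constructs in OSN, and 3745 and 3886 without HT OSN replicates 1 and 2. Between constructs in mCherry-negative cells it called 0, but 24 with all 4 groups in 1 fit, 1 with no filter, and 1, 4 and 4 without HT replicates 1, 2 and 3. For HT fractions it called 1923, against 1264 with voom, 4967 with the mouse block and 660 to 4183 with 1 library left out. For gg8 fractions it called 1372, against 646 with a pseudocount of 0.1, 820 with a mean of at least 5 TPM and 0 to 3703 with 1 library left out. For the interaction it called 2086, and 1195 without HT mCherry-negative replicate 2. OSN levels of Elane, Ctsg and Prg2 rest on a few counts, so their fold differences are the least precise.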
